A study of Mus musculus with 12 samples.

Results

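The regions described here were reprogramming ATAC-seq peaks that were called in control cells and not in cells lacking Zfp266. They were chosen by 2 values of the deposited peak lists: a -log10 q-value of 5 or more in the reprogramming control list, and no overlap, not even 1 bp, with any peak of the reprogramming Zfp266 KO list. Of 170135 reprogramming control peaks, 122374 passed the q-value limit, and 3609 of those had no KO peak, or 2.95%. The same rule turned around gave 2250 KO-only peaks among 116373 KO peaks, or 1.93%. All 4 lists of the series together held 661623 peaks.

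The series holds 12 Omni-ATAC-seq libraries, 3 for each of MEF control, MEF KO, reprogramming control and reprogramming KO, each made from 50000 cells. All samples were passage P2 mouse embryonic fibroblasts (MEFs) given as strain 129, taken from chimeric E12.5 embryos. By the paper, the chimeras came from embryonic stem (ES) cells of 129 background aggregated with host morulae of another background. The share of host cells in the MEF samples is not given. Cells derived from the ES cells, in controls as well as KO, carried Cas9, a Nanog-GFP reporter and a doxycycline-driven cassette in the Sp3 locus. This cassette encodes Myc, Klf4, Oct4 and Sox2 (OSKM) with the fluorescent protein mOrange. Cells received a guide RNA for Zfp266 (KO) or one without a target (control) and were used as transduced populations rather than clones. By the methods, plating followed that of the RNA-seq samples: reprogramming cells grew among a large excess of wild-type MEFs and MEF samples did not. All samples were sorted, the reprogramming ones for mOrange. This difference in culture cannot be told apart from that of OSKM where MEF and reprogramming are compared. The reprogramming medium contained doxycycline at 300 ng/ml and vitamin C at 10 µg/ml. Harvest came 96 hours after transduction, which for the reprogramming groups was 72 hours of OSKM. MEF groups had neither agent. A start-site peak was present in all 4 lists for Zfp266 itself, so the lists do not show whether the gene was disrupted. Start-site peaks were found for 9 of 10 fibroblast markers in both reprogramming lists, where Col1a1 had none, and for 10 of 10 in both MEF lists. Of 8 pluripotent cell markers each list had 5. Nanog and Dppa5a had none in any list, Zfp42 had one in the reprogramming lists alone, and Pou5f1 in the MEF lists alone. Of 3 endothelial markers, Tek had one in every list, and Pecam1 and Cdh5 had none.

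ATAC-seq marks DNA that the Tn5 transposase can reach, which in living cells is mostly promoters and enhancers freed of nucleosomes. Zfp266 belongs to the KRAB zinc finger proteins, a family of DNA-binding proteins best known for recruiting repressive chromatin. During early reprogramming the OSKM factors bind many closed sites while fibroblast enhancers, often bound by the AP-1 dimers of Fos and Jun, are shut down. A bulk library cannot tell a site that is open in fewer cells from a site that is less open in each cell. Each group had 1 peak list called on merged libraries, so neither peak values nor peak counts have a replicate error here. The limit of detection is set by depth, and the number of reads behind each list is not given in the sources used here.

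The sequences below are the central 200 bp (GRCm38.p6, plus strand, 5′ to 3′) of the 5 peaks with the highest -log10 q-value, followed by the peak at which read counts per library were listed. After these come the highest-scoring peaks with a SOX, an OCT and a CTCF string, added once the values were known. Capitals mark matches, on either strand, to the strings searched: TGACTCA for AP-1, GGGTGTGG or GGGCGTGG for KLF factors, CATTGTT or CATTGTC for SOX factors, ATTTGCAT for OCT factors, and the core of the CTCF site.
Kpna1: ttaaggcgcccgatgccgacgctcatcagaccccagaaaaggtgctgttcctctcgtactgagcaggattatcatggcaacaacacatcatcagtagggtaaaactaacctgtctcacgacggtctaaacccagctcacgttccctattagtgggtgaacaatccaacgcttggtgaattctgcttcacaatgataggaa
Dcaf5: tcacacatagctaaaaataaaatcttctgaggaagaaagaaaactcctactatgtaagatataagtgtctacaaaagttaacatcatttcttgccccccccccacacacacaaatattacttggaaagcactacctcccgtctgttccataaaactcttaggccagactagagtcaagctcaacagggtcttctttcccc
Odf3l2: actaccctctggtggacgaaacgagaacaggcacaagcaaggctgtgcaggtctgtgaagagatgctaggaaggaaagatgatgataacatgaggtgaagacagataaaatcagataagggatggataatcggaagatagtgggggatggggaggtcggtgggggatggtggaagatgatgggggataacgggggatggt
Rasal2: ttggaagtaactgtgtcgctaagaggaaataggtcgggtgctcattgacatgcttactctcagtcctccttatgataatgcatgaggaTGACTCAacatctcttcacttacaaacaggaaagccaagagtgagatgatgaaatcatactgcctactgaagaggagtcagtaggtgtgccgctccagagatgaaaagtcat
Vsnl1: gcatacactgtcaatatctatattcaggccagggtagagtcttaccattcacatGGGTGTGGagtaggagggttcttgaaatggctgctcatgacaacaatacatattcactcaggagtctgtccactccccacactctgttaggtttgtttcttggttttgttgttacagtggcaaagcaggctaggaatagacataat
Gas7: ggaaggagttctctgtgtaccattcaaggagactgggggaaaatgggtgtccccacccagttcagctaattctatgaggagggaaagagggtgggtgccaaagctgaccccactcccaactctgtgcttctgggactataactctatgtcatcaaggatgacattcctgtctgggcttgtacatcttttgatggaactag
Tcaf2: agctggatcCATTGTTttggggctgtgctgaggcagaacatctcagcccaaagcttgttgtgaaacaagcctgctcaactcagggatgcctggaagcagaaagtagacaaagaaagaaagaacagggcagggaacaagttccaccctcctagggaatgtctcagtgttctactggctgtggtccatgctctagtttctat
Cldn10: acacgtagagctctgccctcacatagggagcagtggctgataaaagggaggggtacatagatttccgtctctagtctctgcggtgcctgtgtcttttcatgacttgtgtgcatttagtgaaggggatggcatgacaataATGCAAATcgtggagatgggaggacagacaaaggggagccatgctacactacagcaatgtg
Agpat4: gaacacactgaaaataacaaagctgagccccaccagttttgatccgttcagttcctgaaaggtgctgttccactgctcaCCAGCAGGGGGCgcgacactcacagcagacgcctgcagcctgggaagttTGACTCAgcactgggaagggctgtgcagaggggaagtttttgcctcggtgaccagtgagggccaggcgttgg

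The Kpna1 window lies at chr16:35981616-35981815, the Dcaf5 window at chr12:80441212-80441411 and the Odf3l2 window at chr10:79649572-79649771. The Rasal2 window, with the AP-1 string, lies at chr1:157248150-157248349. The Vsnl1 window, with a KLF string, lies at chr12:11380990-11381189, and the Gas7 window, which has none of the strings, at chr11:67568544-67568743. The Tcaf2 window (chr6:42637642-42637841) shows a SOX string, the Cldn10 window (chr14:118838210-118838409) an OCT string on the minus strand, and the Agpat4 window (chr17:12039283-12039482) both a CTCF and an AP-1 string. Each window is named for the protein-coding gene with the nearest start site.

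Most of the 3609 control-only peaks were weak and short. Their median -log10 q-value was 6.85, from 5.00 to 457, against 17.7 for all 122374 control peaks over the same limit. The median fold enrichment over background was 2.65 for control-only peaks and 3.43 for all. The median width was 268 bp for control-only peaks, with a range of 195 to 2155 bp, and 768 bp for all. The share of control peaks without a KO peak fell steadily as the -log10 q-value increased. It was 13.7% from 5 to 6, 9.04% from 6 to 8, 5.37% from 8 to 10 and 2.17% from 10 to 15. From 15 to 20 it was 0.812%, from 20 to 50 0.181%, and at 50 or more 2 of 19642 peaks, or 0.0102%. Since the q-value and the KO overlap chose these regions, the slope is a description of the choice. At the limit itself, the control-only peaks just inside were near C1d (5.001, fold 2.49) and Nectin3 (5.001, fold 2.45). Those just outside lay near Ap2b1 (4.99878, fold 2.44) and Rpl36a-ps1 (4.99873, fold 2.46).

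**Figure D1:**
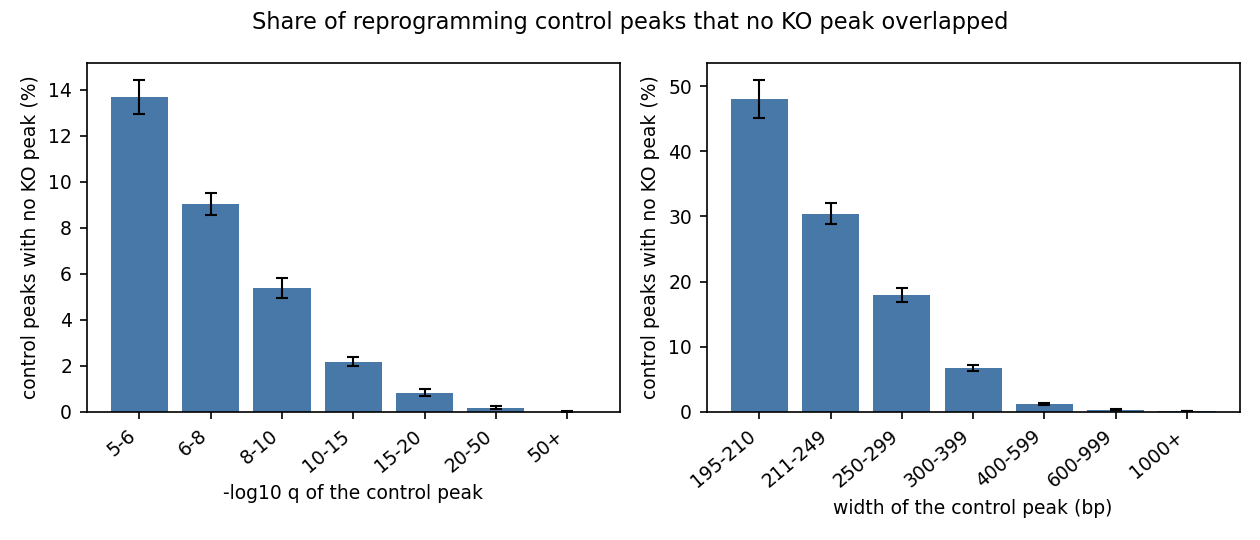
Bars give the percentage of reprogramming control peaks (-log10 q of 5 or more) that no KO peak overlapped, by -log10 q-value (left) and by width in bp (right), with 95% exact binomial intervals for counting error. The share goes from 13.7% to 0.0102% along the q-value and from 48.1% to 0.0935% along the width.

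The share also fell with width. A wider peak can meet a KO peak more easily and tends to have a higher q-value, so this too describes the choice. Of the 1134 control peaks of 195 to 210 bp, 545 had no KO peak, or 48.1% (45.1 to 51.0%, 95% exact binomial interval, counting error only). The share was 30.4% from 211 to 249 bp, 17.9% from 250 to 299 bp and 6.66% from 300 to 399 bp. It was 1.24% from 400 to 599 bp, 0.330% from 600 to 999 bp, and 0.0935% at 1000 bp or more. The lists themselves have a shortest length: 195 bp in the reprogramming control list, 201 bp in the reprogramming KO list, 187 bp in the MEF control list and 204 bp in the MEF KO list. So 213 of the 3609 control-only peaks, or 5.90%, were shorter than every peak in the KO list. Within 15 bp of the control list's shortest length lay 15.1% of control-only peaks and 0.496% of the 118765 control peaks with a KO peak.

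The strongest control-only peaks were also short. Among the 67 with a -log10 q-value of 20 or more, the median width was 211 bp, and 32 measured 210 bp or less, while among the 55430 control peaks of that strength with a KO peak the median was 983 bp and 54 were so short. At that strength 32 of 86 peaks of 195 to 210 bp had no KO peak, or 37.2% (27.0 to 48.3%), against 27 of 551 peaks of 211 to 299 bp, or 4.90%. The share dropped to 8 of 8656 from 300 to 599 bp. At 600 bp or more, 0 of 46204 such peaks lacked a KO peak, which allows up to 0.00798% (exact binomial upper limit). What part the length limit of the peak lists has in the choice of these regions was not tested.

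**Figure D2:**
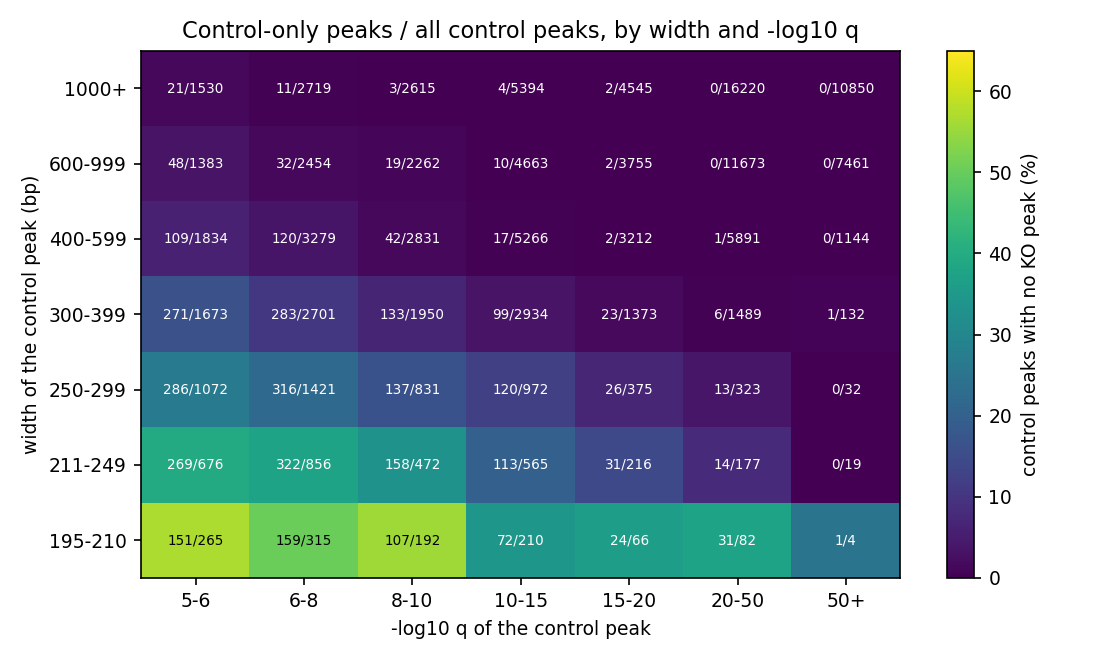
Each cell gives control-only peaks over all reprogramming control peaks for a range of width (vertical, bp) and -log10 q-value (horizontal), and its colour the percentage. The highest share, 57.0%, is in the cell of the shortest and weakest peaks (151 of 265), and cells of 600 bp or more and 20 or more hold 0.

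The choice itself kept the control-only peaks from meeting a KO peak, so their distance to one is a description. The nearest KO peak was a median of 5614 bp away, 3 of 3609 lay within 500 bp of one and 154, or 4.27%, within 1000 bp. They were spread over all 21 chromosomes, where they made up 2.42% (chromosome 17) to 3.63% (chromosome X) of the control peaks. They had 2651 different nearest protein-coding genes, of which 2024 had 1 control-only peak and 30 had 5 or more.

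The strongest of all lay within the Kpna1 gene, which encodes an importin that carries proteins into the nucleus. This peak (chr16:35981613-35981818, 206 bp) had a -log10 q-value of 457 and a fold enrichment of 9.47, and the next strongest had 58.9. It lay in an intron, 1599 bp upstream of the nearest start site of that gene. In fibroblasts it was covered by a peak of 2436 bp in the KO list (-log10 q 187, fold 4.41) and by none in the MEF control list. So the MEF and reprogramming lists pointed opposite ways at this site. Its sequence recurs elsewhere: 45.0% of the 32-letter words in its window occur more than once in the reference, in up to 6 places, with matching stretches at chr9:123462029-123462156 and chrX:21680560-21680633. By general knowledge its letters are those of the large ribosomal RNA, though no ribosomal RNA sequence was compared here. Reads of 40 bases from such copies cannot always be placed. Their part in the difference was not tested.

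The other peaks among the first 10 had -log10 q-values from 31.3 to 58.9 and widths from 198 to 348 bp. The second lay 4711 bp upstream of Dcaf5, which encodes a substrate receptor of a ubiquitin ligase, at chr12:80441138-80441485. It had a fold enrichment of 5.71, and it was a peak in both MEF lists, with a fold of 3.45 in MEF control and 3.69 in MEF KO. The third, 3934 bp upstream of Odf3l2, had a fold of 5.22 in reprogramming control, 8.20 in MEF control and 5.46 in MEF KO. In contrast, the peak in an intron of Vsnl1, a neuronal calcium sensor gene, had a fold of 5.76 and no MEF peak. The peak upstream of Angpt1, the gene for a ligand of the endothelial receptor Tek, had a fold of 5.65, lay 63260 bp from the start site and likewise had no MEF peak.

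The Rasal2 peak, in an intron of a gene for a Ras GTPase-activating protein, is the AP-1-containing site printed above. Its fold was 4.60 in reprogramming control, 4.00 in MEF control (188 bp wide there) and 2.98 in MEF KO (905 bp wide). Of the others in the first 10, those nearest to Olfr283 and Tcaf2 had no MEF peak, that in Tmtc2 had a MEF control peak of the same 198 bp and no MEF KO peak, and that near Rnf157 had both. In the Tmtc2 window 45.6% of words recurred in the reference, in the Olfr283 window 17.2%, and in the Dcaf5 window 4.73%. In the windows of the Odf3l2, Rasal2, Vsnl1, Angpt1, Tcaf2 and Rnf157 peaks it was 0%.

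Most control-only peaks were sites that had no peak in fibroblasts. No MEF peak overlapped 2788 of 3609, or 77.3% (75.8 to 78.6%, 95% exact binomial interval). Both MEF lists had a peak at 699, or 19.4% (18.1 to 20.7%), MEF control alone at 73, or 2.02%, and MEF KO alone at 49, or 1.36%. In all, a peak in the MEF control list was found at 21.4% and in the MEF KO list at 20.7%. Of the 118765 control peaks with a KO peak, 49.0% had no MEF peak and 47.5% had both. Restricted to those of 400 bp or less, a set nearer in width with a median of 320 bp, 67.7% (67.0 to 68.4%) had no MEF peak. The KO-only peaks were between these values at 72.6% (70.7 to 74.4%). Over the -log10 q-value, the share without a MEF peak was 78.3% from 5 to 6, 78.4% from 6 to 8, 79.5% from 8 to 10, 75.2% from 10 to 15, 69.1% from 15 to 20, and 46.3% of the 67 at 20 or more. Among control peaks with a KO peak it was 59.3% from 5 to 6 and 42.8% at 20 or more, where those peaks were wider. Within ranges of width at 20 or more, it was 46.9% of 32 control-only peaks and 51.9% of 54 peaks with a KO peak from 195 to 210 bp, 44.4% of 27 and 63.5% of 524 from 211 to 299 bp, and 50.0% of 8 and 58.7% of 8648 from 300 to 599 bp. So among these strong peaks the control-only ones had the lower share in each range, on few peaks. Below 20, control-only peaks had the higher share in each range of width. From 5 to 10 it was 83.5% against 76.1% at 195 to 210 bp, and 78.6% against 71.6% at 211 to 299 bp. At 300 to 599 bp it was 77.9% against 65.1%. From 10 to 20 the same ranges gave 83.3% against 71.1%, 74.5% against 70.3%, and 67.4% against 62.1%.

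The strongest peaks absent from fibroblasts were those near Vsnl1, Angpt1, Olfr283 and Tcaf2, already described, and a 208 bp peak in an intron of Ulbp1, which encodes a stress ligand for natural killer cells (fold 5.02, -log10 q 29.9). In the Ulbp1 window 95.9% of words recurred in the reference. The strongest peaks shared with both MEF lists were those near Dcaf5, Odf3l2, Rasal2 and Rnf157, and 1 near Pld6 (fold 3.27) that was weak in fibroblasts, with folds of 1.64 in MEF control and 1.51 in MEF KO.

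The MEF lists come from libraries that the choice of these regions did not use, so they show the same sites under the same guides without OSKM. Of the 772 control-only peaks with a MEF control peak, 73 had no MEF KO peak, or 9.46% (7.49 to 11.7%). In the other direction, 49 of 748 with a MEF KO peak had no MEF control peak, or 6.55% (4.89 to 8.57%). These intervals overlap. Among control peaks of 400 bp or less with a KO peak the same shares were 6.86% (6.21 to 7.56%) and 6.49% (5.85 to 7.17%), which overlap those of the control-only peaks. Over all 122374 control peaks they were 3.75% and 3.41%. Where both MEF lists had a peak, the median fold was 3.38 in MEF control and 3.29 in MEF KO. MEF KO had the lower fold at 446 of 699, or 63.8% (60.1 to 67.4%), against 64.0% (62.7 to 65.3%) of the control peaks of 400 bp or less that had a KO peak. The intervals of these shares overlap.

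**Figure D3:**
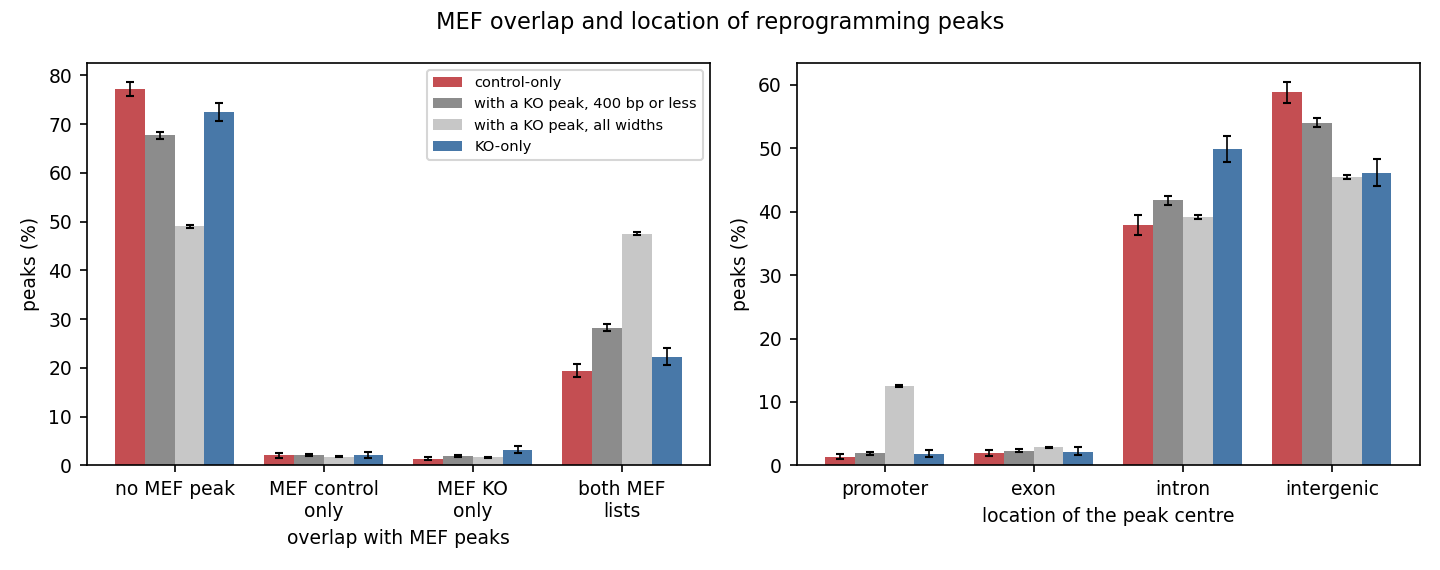
Bars give the percentage of peaks by overlap with the MEF peak lists (left) and by location of the peak centre (right) for control-only peaks, control peaks with a KO peak (400 bp or less, and all widths) and KO-only peaks, with 95% exact binomial intervals. Control-only peaks have the highest share without a MEF peak, 77.3%, and of intergenic sites, 58.8%.

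Read counts for each library are listed only at intervals past the authors' threshold, and almost none of the control-only peaks lay in such an interval. Of 86 listed reprogramming intervals with a lower KO mean, 1 held a control-only peak. Those intervals held 81 of the 122374 control peaks, or 0.0662%. The 1522 listed intervals with a higher KO mean held 787 control peaks, or 0.643%, and 0 of 3609 control-only peaks. The 479 listed MEF intervals with a higher KO mean held 185 control peaks, or 0.151%, and the 1 with a lower KO mean held 1, or 0.000817%. None of these was control-only (0 of 3609). The 2 measures rest on the same reprogramming libraries, so the counts are given as a description. For 3608 of the 3609 regions no library values were listed and a replicate check could not be made.

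The exception was a 626 bp peak in an intron of Gas7, a gene first known from growth-arrested fibroblasts, 17892 bp upstream of the nearest start site. Its -log10 q-value of 6.34 and fold of 2.33 were modest. The listed interval around it runs over 1316 bp at chr11:67568331-67569646. Its size-factor-normalised counts were 81.6, 87.1 and 71.8 in the reprogramming control libraries and 49.4, 54.1 and 46.0 in the KO libraries. All KO libraries lay below all control libraries. The control mean was 80.2 ± 7.75 and the KO mean 49.9 ± 4.06 (SD, 3 libraries each), a log2 ratio of -0.67 with a pseudocount of 1. Raw counts were 73, 96 and 55 in control and 54, 44 and 29 in KO, where the nearest values of the 2 groups differed by 1 read. The interval was listed because these libraries differed, so no further test is given. In both MEF lists the site was a 1285 bp peak, with a fold of 3.76 in MEF control and 3.82 in MEF KO. From the authors' mean over all 12 libraries, 162.7, the mean of the 6 MEF libraries was 260.3. So at Gas7 the reprogramming control level was under the fibroblast level, and the reprogramming KO level was lower again.

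**Figure D4:**
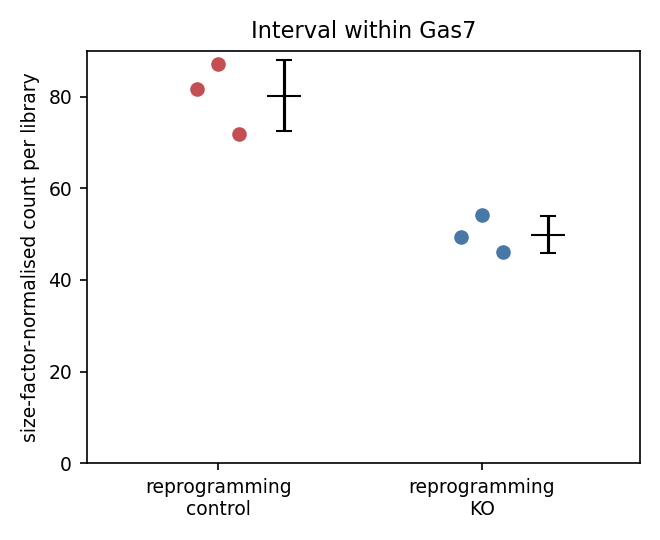
Points are size-factor-normalised counts of the 3 reprogramming control and 3 reprogramming KO libraries at the Gas7 interval, with mean and SD beside them. The control libraries sit between 71.8 and 87.1 and the KO libraries between 46.0 and 54.1.

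Control-only peaks were distal. Intergenic sequence held 58.8% (57.2 to 60.4%) of their centres, introns 37.8%, exons 1.97%, and promoters, taken as 1000 bp around a protein-coding start site, 1.36% (49 peaks). With 2500 bp the promoter share was 4.05%, with start sites of all genes 4.99%, and at a -log10 q-value limit of 10 it was 0.490%. Of all control peaks, 12.2% were at promoters and 45.9% intergenic. Short peaks as a whole were rarely at promoters: among control peaks of 400 bp or less with a KO peak, 1.89% (1.70 to 2.10%) were at promoters, an interval that overlaps the 1.01 to 1.79% of control-only peaks. The median distance to the nearest protein-coding start site was 56817 bp (52934 to 60758 bp, 95% binomial interval of the median) for control-only peaks and 38320 bp (37163 to 39567 bp) for the short peaks with a KO peak, which were also wider (320 against 268 bp) and stronger (median -log10 q 9.43 against 6.85). With start sites of all genes the median for control-only peaks was 16014 bp. Protein-coding start sites were at a median of 25933 bp from all peaks with a KO peak and 22534 bp from KO-only peaks. KO-only peaks lay more in introns (49.9%, 47.8 to 52.0%) and less in intergenic sequence (46.2%, 44.1 to 48.3%), with intervals that do not meet those of control-only peaks. Control-only peaks with no MEF peak were the most remote, at a median of 64875 bp, against 36721 bp for those with both MEF peaks.

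Among the 49 promoter peaks the strongest, near Eif3j2, had a -log10 q-value of 24.9 and a fold of 4.53, with folds of 7.98 in MEF control and 6.83 in MEF KO. In its window 58.0% of words recurred in the reference, in up to 18 places. Eif3j2 encodes a subunit of translation initiation factor eIF3. The next was that of Rhobtb3, 794 bp upstream, with a fold of 3.11 and with 4.70 in MEF control and 5.57 in MEF KO. Its window held the CTCF string, as did that of Pak4 (fold 2.15), a kinase gene whose site also had both MEF peaks. The peaks at Htr3b (a serotonin receptor subunit), Camk2g (a calcium-dependent kinase), Gm6812, Clec2g and Cltc (the clathrin heavy chain) had -log10 q-values from 8.95 to 10.3 and no MEF peak. So of the 8 strongest promoter peaks 3 had both MEF peaks and 5 had neither. Of all 49, 18 had both and 31 had neither. Where both MEF lists had a peak, promoters held 2.58% of control-only peaks and 24.7% of control peaks of all widths with a KO peak. Where neither had one, these shares were 1.11% and 1.43%.

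The sequences held the strings of both fibroblast and reprogramming factors. In the central 200 bp, 11.8% of control-only peaks (10.8 to 12.9%) held the AP-1 string, 11.9% (10.9 to 13.0%) a SOX string, 8.12% (7.25 to 9.06%) a KLF string, 2.88% (2.36 to 3.48%) the CTCF string and 1.97% (1.54 to 2.48%) the OCT string. At 66.7% none of them was present. Over all 122374 control peaks the shares were 9.25% for AP-1, 8.77% for SOX, 5.90% for KLF, 1.87% for CTCF and 1.54% for OCT. The centre of a wide peak need not be its summit, and against the short control peaks with a KO peak the order changed. There AP-1 stood at 14.5% (interval from 14.0% upwards), above the control-only peaks, while SOX at 10.8% (10.4 to 11.3%), KLF at 7.77% (7.39 to 8.17%), CTCF at 3.22% (2.96 to 3.48%) and OCT at 2.12% (1.91 to 2.34%) overlapped them. In a window of 400 bp, AP-1 was at 15.2% of control-only and 15.2% of all control peaks, and KLF at 10.0% and 10.2%. SOX was at 18.2% and 15.7%, OCT at 3.10% and 2.84%, and CTCF at 3.13% and 2.84%.

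The SOX string was less common in KO-only than in control-only peaks, while control-only peaks overlapped the short control peaks with a KO peak. KO-only peaks held a SOX string at 7.07% (6.04 to 8.20%), below the 11.9% of control-only peaks. They held a KLF string at 10.3% (9.04 to 11.6%), whose interval just touches that of control-only peaks. AP-1 was at 13.2% (11.8 to 14.6%) of KO-only peaks, CTCF at 3.64% and OCT at 2.62%, all with overlapping intervals. Peaks are not independent samples of a condition, so these intervals cover counting error only, and a string is a match of letters and not a bound site.

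**Figure D5:**
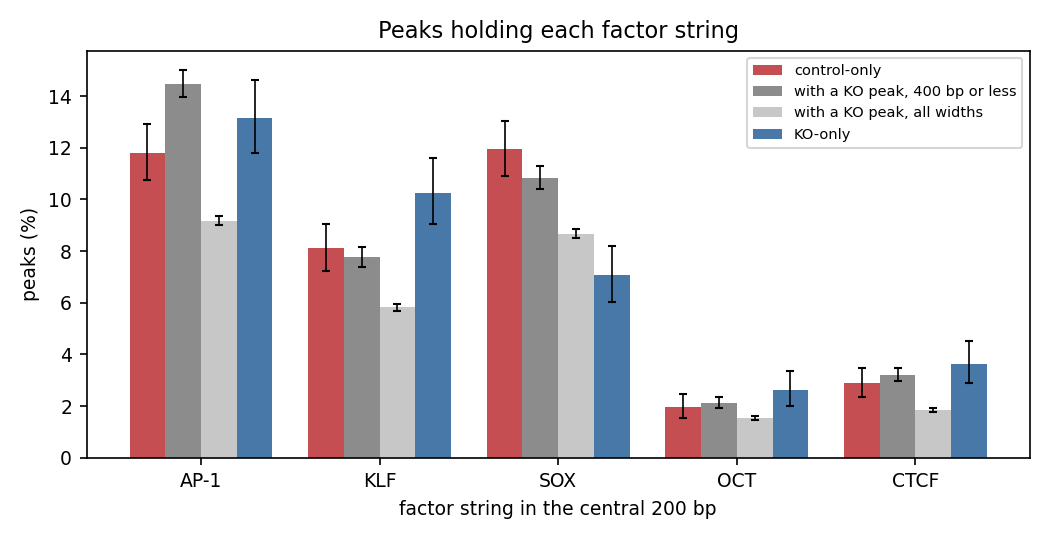
Bars give the percentage of peaks whose central 200 bp held each factor string on either strand, for control-only peaks, control peaks with a KO peak (400 bp or less, and all widths) and KO-only peaks, with 95% exact binomial intervals. For SOX, control-only peaks stand at 11.9% and KO-only peaks at 7.07%, while for AP-1 the short peaks with a KO peak are highest at 14.5%.

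Sequence content differed with the presence of a peak in fibroblasts. Of the 699 control-only peaks with both MEF peaks, 20.7% (17.8 to 23.9%) held the AP-1 string, against 9.22% (8.17 to 10.4%) of the 2788 with no MEF peak. CTCF was at 7.87% (5.98 to 10.1%) and 1.43% (1.03 to 1.95%). The order was turned for the reprogramming factors: SOX was at 8.44% (6.49 to 10.8%) of those with both MEF peaks and 13.1% (11.9 to 14.4%) of those with none, and KLF at 5.01% (3.51 to 6.90%) and 8.86% (7.83 to 9.98%). OCT was at 1.57% and 2.15%, with overlapping intervals. The control peaks with a KO peak went the same ways, with AP-1 at 10.3% and 7.97%, SOX at 5.79% and 11.5%, KLF at 4.79% and 6.84%, and CTCF at 3.22% and 0.485%.

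Among the 67 control-only peaks of 20 or more, 8 held the CTCF string, or 11.9% (5.30 to 22.2%), against 4.53% (3.70 to 5.48%) of control peaks of that strength and of 400 bp or less with a KO peak. These intervals overlap. AP-1 was at 16.4% and 17.4% in the same sets. The Agpat4 peak printed above, in an intron 79321 bp upstream of the nearest start site, is the strongest with a CTCF string (-log10 q 29.5) and had both MEF peaks. The Cldn10 peak is the strongest with an OCT string (-log10 q 29.2). It is 196 bp wide, lies in an intron of that claudin gene and had no MEF peak.

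Repeat-masked sequence was more common in control-only peaks than in control peaks with a KO peak of all widths, and less common than in KO-only peaks. The reference masked more than 50% of the window as repeats at 23.0% (21.6 to 24.4%), against 15.6% of all control peaks with a KO peak, 21.2% (20.6 to 21.8%) of those of 400 bp or less and 30.7% (28.8 to 32.7%) of KO-only peaks. More than 50% of the 32-letter words recurred elsewhere in the genome at 9.23% (8.30 to 10.2%), 6.28%, 8.96% and 9.33% of the same sets. Median GC content was 44.5% in control-only peaks, 46.5% in those with a KO peak, 45.0% in those of 400 bp or less and 45.5% in KO-only peaks.

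The control-only peaks nearest to genes of reprogramming and of the fibroblast state are given as a share of all control peaks assigned to each list, to be read against the 2.95% over all control peaks. Of 28 fibroblast and mesenchymal genes, 8 were nearest to 13 control-only peaks, 3.46% of the 376 control peaks assigned to that list. The strongest lay 90510 bp upstream of Col1a2, a chain of type I collagen, with a fold of 3.82 and no MEF peak. Zeb2, a transcription factor of the mesenchymal state, had 4 of them, the strongest 570625 bp upstream with a fold of 3.81. Cdh2 (N-cadherin) had 3, and a peak 5194 bp upstream of Postn, the matrix protein periostin, had a fold of 3.12.

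Of 13 AP-1 genes, Jun had 1 control-only peak (fold 2.56, 145257 bp upstream), 1.02% of 98 control peaks. Of 12 RUNX, TEAD and CEBP genes, Runx1 had 2 (folds 3.05 and 2.60), 1.12% of 179. All of these lacked a MEF peak. In the TGF-beta pathway, which holds cells in the mesenchymal state, 5 of 23 genes had 9, or 2.15% of 419. These were 3 near Inhba, an activin subunit (strongest fold 2.78), 2 each near the receptor gene Acvr2a and the ligand gene Bmp2, and 1 each near Smad3 (fold 2.69) and Tgfbr2.

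Of 30 pluripotency genes, 5 had 10, or 2.75% of 364. Myc had 4 and Klf4 2, both encoded by the induced cassette as well. The strongest near Myc was 279297 bp upstream with a fold of 2.45, an AP-1 string and no MEF peak. That near Klf4, 80587 bp downstream, had a fold of 3.06 and both MEF peaks, with folds of 4.23 in MEF control and 4.33 in MEF KO. Tet2 had 2, and Mycn (fold 3.05) and Nr5a2 had 1 each. Of 22 epithelial genes, Esrp2, an epithelial splicing regulator (fold 1.82, in its intron), and Grhl2, a transcription factor of epithelia (fold 2.73), had 1 each, 1.57% of 127. Of the 24 roadblock genes of the screen in the same study, 23 matched the annotation by symbol and 4 were nearest to 5 control-only peaks, 2.17% of 230. Cdk13 had 2 (folds 2.26 and 2.54) and Jun the 1 given above. Map1b had 1 (fold 2.76, 102234 bp upstream, with a MEF control peak and no MEF KO peak) and Rabgap1l 1 in an intron (fold 2.85, both MEF peaks). The first list held 17 of these genes, without Map1b and Rabgap1l, and it was completed after the values were seen. Of 13 senescence and p53 genes, 0 had any among 111 control peaks.

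The 3 widest control-only peaks were weak. The widest, 2155 bp and 25603 bp upstream of the ribosomal protein gene Rps3, had a fold of 2.51, and both MEF lists had a peak there (folds 4.37 in control and 4.16 in KO). The second, near the stress kinase gene Map2k4, was 1647 bp wide with a fold of 2.49 and a MEF control peak of fold 1.99 without a MEF KO peak. The third, 1546 bp in an intron of Gm3002 and nearest to Gm3033, lay 280 bp from a KO peak and had no MEF peak. Their -log10 q-values were 5.22 to 5.69.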

How the data were processed

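Omni-ATAC-seq was measured in 12 libraries, grouped and numbered by sample title. The authors trimmed reads (Cutadapt), aligned them to GRCm38 (BWA), dropped duplicates, mitochondrial and blacklisted reads and improper pairs, called broad peaks on merged replicates (MACS2), counted reads over the union of peaks and listed intervals under an FDR of 0.05 (DESeq2). The deposited peak lists give fold enrichment, a ratio over background, and the -log10 q-value. The deposited tables give raw read counts and the same counts over size factors, a normalised signal. Their fold changes and p-values were not used. Total raw counts in listed reprogramming intervals ran from 141616 to 324141 per library, which is not the sequencing depth.

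Overlap needed 1 bp. Peak centres were placed with GENCODE M21, whose build the authors share, and 0 of 661623 peaks passed a chromosome end. Starts are counted from 1. Shares have 95% exact (Clopper-Pearson) intervals. No test was run. Interval and motif code, in Python 3.11.15 with pandas 2.3.3, scipy 1.17.1, pysam 0.24.0 and samtools 1.23.1, was tested on simulated intervals. The regions and gene lists were chosen with earlier results of these data known. Regions were named as the 10 highest by q-value, those in listed lower intervals, the 8 highest at promoters, the 5 highest without and the 5 with both MEF peaks, up to 3 for each gene list, and the 3 widest. Recurring words, the full roadblock list, the comparison with peaks of 400 bp or less, and the minimum width of 300 bp were added after the data were seen.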

Additional observations from a re-analysis of the deposited data

How the results depend on the processing

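No paired analysis was run because no result comes from a test. The regions come from 1 merged peak list per group, and the libraries at Gas7 are given as values. Taken by replicate number, which no source says pairs the libraries, the Gas7 log2 ratios were -0.71, -0.68 and -0.63. Of 58 alternatives, 21 left a share or a median distance within its 95% interval, a count within 1.5 times or the Gas7 ratio within 1 SD, and 37 did not. The sign of the Gas7 ratio held in all of its own. Extending KO peaks by 500 bp left 3606 control-only peaks. At a -log10 q-value of 3 the control-only peaks numbered 8489, at 10 they numbered 612, under 50% reciprocal overlap 10556, and at 300 bp or more, an alternative chosen after seeing the data, 1259. The KO-only peaks numbered 5037, 453 and 1088 at a limit of 3, at 10 and at 300 bp or more. Against the separate blocks of the gapped KO list, 4822 control peaks had no overlap. With 50% of the peak covered, 19.3% had a MEF control peak, 18.8% a MEF KO peak and 79.2% neither. At a limit of 10 these were 28.1%, 26.1% and 70.9%, and at 300 bp or more 23.4%, 23.0% and 75.2%. At a limit of 3, 3 peaks lay in a listed lower interval. At Gas7 the log2 ratio was -0.80 with raw counts and -0.75 to -0.61 without any 1 library. Promoters held 4.05% within 2500 bp, 4.99% over all genes and 0.490% at a limit of 10. Introns held 41.2% over all genes, 35.9% at a limit of 10 and 40.7% at 300 bp or more, and intergenic sequence 50.7%, 61.4% and 55.7%. The median start-site distance was 16014 bp over all genes and 50495 bp at 300 bp or more. In the central 400 bp, AP-1 was at 15.2%, KLF at 10.0%, SOX at 18.2% and OCT at 3.10%. AP-1 was at 13.2% at a limit of 10. At 300 bp or more AP-1 was at 7.78%, KLF at 6.12% and SOX at 10.0%. The cause of these moves was not tested, beyond the limits and windows that define them.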

Other observations

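The genes with the most control-only peaks, picked after their counts were seen, were Adgrl3 and Gpc5. Adgrl3, an adhesion receptor of synapses, had 9 of its 106 control peaks (8.49%), Gpc5, a glypican, 9 of 73 (12.3%), and Lsamp, a neuronal adhesion protein, 8 of 103 (7.77%). Cdh6 and Lrrc4c had 7 of 62 each (11.3%), Celf2 7 of 88 (7.95%) and Epha7 7 of 76 (9.21%). The share over all control peaks was 2.95%. These peaks are assigned by the nearest start site alone. The 9 assigned to Adgrl3 lay 59994 to 1341970 bp from it and had folds from 2.49 to 3.59. The 9 assigned to Gpc5 lay 21847 to 845452 bp away, with folds from 2.53 to 3.81. None of these 18 had a MEF peak.

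Near Atxn1, which encodes the polyglutamine protein ataxin-1, 5 of 23 control peaks were control-only, or 21.7%, and here fibroblast peaks were present. The strongest, at chr13:45922598-45922838, had a fold of 4.42 and a -log10 q-value of 22.9. The second, at chr13:45976867-45977358, is 492 bp wide with a fold of 3.03 and a -log10 q-value of 19.1, well above the median width of 268 bp. Of the 5, 3 had both MEF peaks, 1 a MEF KO peak and 1 none. This gene was chosen after its values were seen, and none of its sites has listed counts per library.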
